A study of Mus musculus with 4 samples.

Results

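The genes described here are the skeletal muscle regulators and skeletal myosin heavy chains, 10 symbols chosen to set skeletal against cardiac muscle: Myod1, Myog, Myf5, Myf6, Pax7, Myh1, Myh2, Myh3, Myh8 and Myh13. Of these, 8 had a row among the 24637 genes of the table, and Myf6 and Myh2 were not analysed here. The set was selected on earlier results of these data, the fold change of Myh13 and its counts of 0 in WT being the measured values in view, so the genotype difference of these genes is described without a test. The measurement was mRNA sequencing of 4 libraries from mouse embryonic stem cell (ESC) lines, grown for 5 days as embryoid bodies in medium with serum and for 9 days on gelatin-coated plates, a schedule for making cardiomyocytes. The 2 WT libraries carry the label Taf4+/+, and the other 2 are labelled Taf4a-/-. Taf4a encodes a subunit of TFIID, the factor that seats RNA polymerase II at promoters, and the null allele lacks 2 of its exons. All lines were derived from blastocysts of crosses between Taf4a heterozygotes on feeder cells. Each genotype rests on 2 lines, and the p-values below measure the spread between these lines only.

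In the embryo, Myf5, Myod1, Myf6 and Myog, basic helix-loop-helix factors, commit cells to skeletal muscle and switch on its genes, and Pax7 marks the progenitors and satellite cells that can enter this path. Differentiating fibres then use a family of myosin heavy chains, the motor proteins of the thick filament, whose genes lie side by side on mouse chromosome 11. Myh3 is the embryonic form, Myh8 the perinatal form, Myh1, Myh2 and Myh4 the adult fast forms, and Myh13 a form best known from the muscles that move the eye. Heart muscle uses Myh6 and Myh7 instead, from a separate locus.

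The libraries held 21732746 to 27733034 reads on genes, and the deposited values are read counts divided by 1 factor per library, so that 1 read was worth 0.877 to 1.11 normalized counts. Taf4a itself had 889 and 678 normalized counts in WT and 1722 and 1799 in the libraries labelled Taf4a-/-, so its gene-level count was not lower there, and every genotype named below is the one on the label. The exons missing from the null allele were not counted apart from the rest of the gene. The 16926 genes that averaged 10 normalized counts or more were compared with limma on log2(normalized count + 1), on which the differences of low genes come out too small. At an adjusted p under 0.05, 11.3% of them were higher and 17.3% lower in the libraries labelled Taf4a-/-. These background counts depended on single libraries, since the 1906 genes called higher became 745 without WT replicate 2, 625 without Taf4a-/- replicate 1 and 624 without Taf4a-/- replicate 2. The 2928 called lower became 1222 without WT replicate 2 and 1921 without Taf4a-/- replicate 2.

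Myh13 was read in both libraries labelled Taf4a-/- and in neither WT library, while Myod1 and Myog had their few reads mostly in WT. Myh3 and Pax7 varied as much within a genotype as between genotypes, and Myf5, Myh1 and Myh8 stood at 0 to 2 reads in every library. The 8 genes with a row together made up 49 and 8 reads in the WT libraries and 63 and 44 in the libraries labelled Taf4a-/-. Only Myh3 and Myh13 passed the filter, and Myh13 did so through the libraries where it is high.

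The windows below show how far the Myh13 transcript can be told from its relatives by sequence, which is what its read count rests on. They are taken from the coding sequence on the plus strand of chromosome 11 in the NCBIM37 build, each 50 bases long, and capitals mark the bases at which the aligned pair differs. In exon 3 of the 40 exons of Myh13, at chr11:67142503-67142552, the window was the same in Myh2.
Myh13 and Myh2: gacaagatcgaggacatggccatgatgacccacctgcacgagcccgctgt
In exon 14, at chr11:67154968-67155017, the closest window to a cardiac myosin had 1 mismatch to Myh6.
Myh13: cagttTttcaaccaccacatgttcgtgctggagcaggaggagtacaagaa
Myh6: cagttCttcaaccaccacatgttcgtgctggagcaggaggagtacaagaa
In exon 2, at chr11:67140692-67140741, the window was farthest from every other myosin, with 20 mismatches to its nearest relative, Myh7.
Myh13: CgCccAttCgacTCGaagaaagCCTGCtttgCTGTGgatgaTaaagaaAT
Myh7: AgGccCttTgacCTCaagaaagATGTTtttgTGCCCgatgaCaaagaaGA

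Over the whole Myh13 transcript, 1203 of 6013 windows (20.0%) lay within 2 mismatches of another of the compared myosins, and 8.45% were identical to one. The median window was 9 mismatches from its nearest relative. The closest relatives by this measure were Myh8 with 13.5% of windows and Myh1 with 13.0%, and the cardiac Myh6 and Myh7 came to 1.08% and 1.33%, with no window identical to either. The adult fast forms were much less separable, since 57.0% of Myh1 windows and 52.4% of Myh2 windows had a near-identical relative. How multiply mapping reads were handled and how long the reads were is not given in the sources used here, so counts of Myh1, Myh4 and Myh8 are uncertain between these genes.

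**Figure D1:**
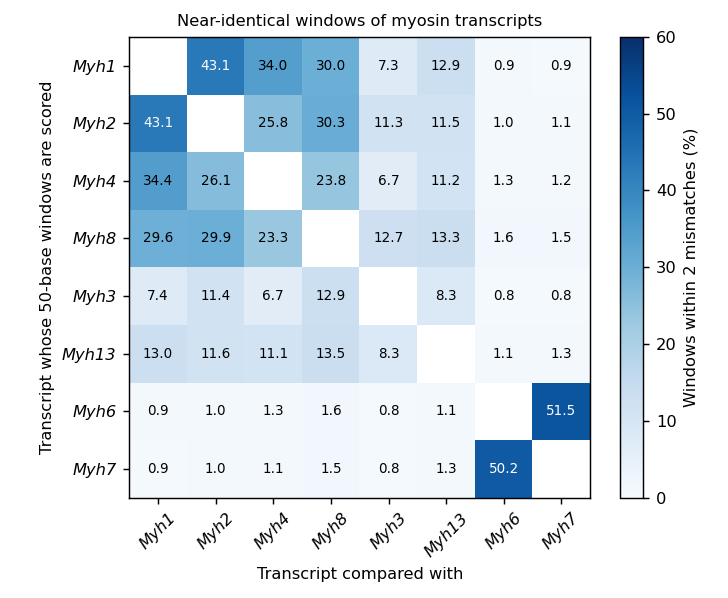
Percent of the 50-base windows of each transcript (rows) that lie within 2 mismatches of another transcript (columns). Myh13 shares 8.3% to 13.5% of its windows with each skeletal relative and 1.1% and 1.3% with the cardiac Myh6 and Myh7.

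Among the myogenic factors, Myog (ENSMUSG00000026459, chr1:136186581-136189124, plus strand), which drives the differentiation of committed myoblasts, had 9.64 and 5.20 normalized counts in WT and 0.979 and 2.21 in the libraries labelled Taf4a-/-. Both WT libraries were the higher ones, on 11 and 5 reads against 1 and 2. The log2 fold change was -1.69 (standard error over the libraries 0.52), and it lay between -2.08 and -1.30 without any 1 library and at -0.58 with a pseudocount of 10. Myod1 (ENSMUSG00000009471, chr7:53631844-53634462, plus strand), which sets the myoblast fate, had 6.14 and 1.04 normalized counts in WT and no read in either of the others. The WT mean of 3.59 normalized counts was 1.20 times a floor of 3 reads in each library. That ratio sets no minimum for the decrease, since the exact Poisson interval of a count of 0 reaches 3.69 reads. WT replicate 2 alone lay under the floor, and 7 of the 8 Myod1 reads came from WT replicate 1. Its log2 fold change of -1.93 (standard error 0.90) was -0.42 with a pseudocount of 10. Both genes were lower without overlap in the libraries labelled Taf4a-/-, as were 29.6% of all genes of the table.

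Myf5 (ENSMUSG00000000435, chr10:106919964-106923190, minus strand), the earliest of the factors to act in somites, had 1 read in WT replicate 1 and 1 in Taf4a-/- replicate 2. At this depth no difference was detectable, and the sign of its value turned from 0.083 to -0.37 without WT replicate 2 and to -0.45 without Taf4a-/- replicate 2. Together Myod1, Myog and Myf5 gave 19 and 6 reads in WT and 1 and 3 in the libraries labelled Taf4a-/-. So WT replicate 1 held more than any other library, and the genotypes did not overlap in this sum.

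Pax7 (ENSMUSG00000028736, chr4:139292977-139389445, minus strand), which also marks parts of the neural tube and neural crest, had 7.89 and 0 normalized counts in WT and 6.85 and 9.95 in the others. WT replicate 2 was the library that stood apart, and WT replicate 1 lay between the libraries labelled Taf4a-/-. The log2 fold change of 1.64 (standard error 1.59) became 0.06 without WT replicate 2, 3.21 without WT replicate 1 and 0.46 with a pseudocount of 10. Of the 8 neural tube and crest markers tested, 1 was called higher and none lower, beside 11.3% and 17.3% of all genes tested. The list summed to 3774 and 4357 normalized counts in WT and 6378 and 4549 in the others. The part of such cells in the Pax7 reads was not tested.

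**Figure D2:**
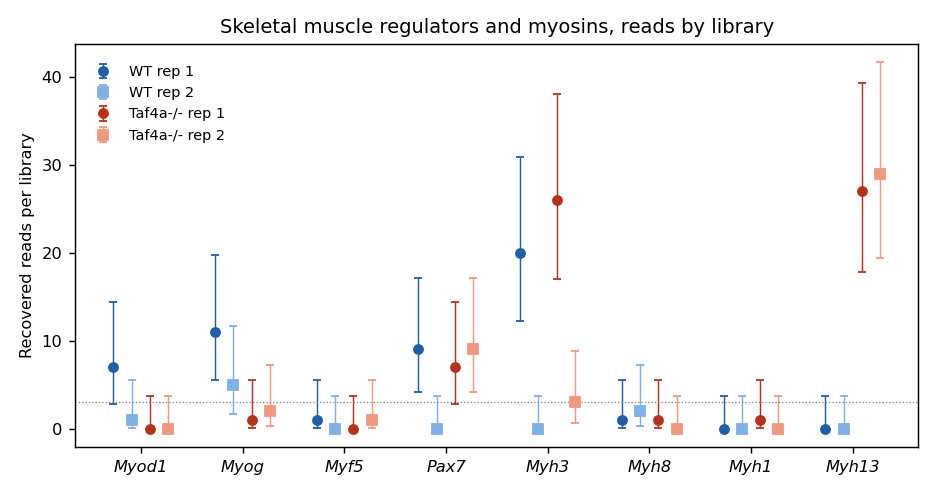
Reads per library (vertical axis) for the 8 genes with a row, with exact Poisson 95% intervals that cover counting error only and a dotted line at 3 reads. Myh13 has 27 and 29 reads in the libraries labelled Taf4a-/- and 0 in WT, and every value of Myod1 and Myog there is 2 reads or fewer.

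Of the myosins, Myh13 (ENSMUSG00000060180, chr11:67135160-67185088, plus strand) had 0 and 0 normalized counts in WT and 26.4 and 32.1 in the libraries labelled Taf4a-/-, a mean of 29.3 ± 3.99 (SD, n = 2). These were 27 and 29 reads, with exact Poisson 95% intervals of 17.8 to 39.3 and 19.4 to 41.6 reads, which cover counting error only. The mean of Myh13 there was 9.75 times the floor of 3 reads, and it was higher without overlap, as were 30.0% of all genes of the table. Its fitted log2 fold change was 4.91 (limma standard error 0.58), a value that depends on the pseudocount and was 1.97 with a pseudocount of 10 and 5.95 with voom. Leaving out any 1 library gave 4.78 to 5.05. A level of this size was low for the table, since 40.6% and 42.3% of its genes lay below Myh13 in these 2 libraries. Its exons overlapped no other annotated gene, and an annotated 7SK RNA inside 1 of its introns had no row.

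The number of genes that shared the pattern of Myh13 depended on the limit set on their reads. Genes with no read in either WT library and at least 10 reads in both libraries labelled Taf4a-/- numbered 2, Myh13 and Gm16411, and at 15 reads or more only Myh13 was left. In the other direction 57 genes had at least 10 reads in both WT libraries and none in the others, and 35 had at least 25. At 5 reads the numbers were 22 and 98. These limits were set after the values were seen, and Myh13 was chosen with its fold change and its lack of reads in WT in view. The counts therefore describe the libraries only and are no test of how unusual Myh13 is.

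Myh3 (ENSMUSG00000020908, chr11:66891802-66915793, plus strand), the first of the skeletal myosins to appear in development, had 17.5 and 0 normalized counts in WT and 25.5 and 3.32 in the libraries labelled Taf4a-/-. Replicate 1 of each genotype was high and replicate 2 low, so the genotypes overlapped. The log2 fold change of 1.31 had a limma standard error of 1.51 and turned to -0.79 without WT replicate 2. Eif2s3y, a Y-linked gene, had 1925 and 0 reads in WT and 316 and 0 in the libraries labelled Taf4a-/-, so the libraries with 20 and 26 Myh3 reads were those with Y-linked reads, and of the others WT replicate 2 had no Myh3 read and Taf4a-/- replicate 2 had 3. It was picked after its values were seen, and its relation to Myh3 was not tested.

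The perinatal Myh8 (ENSMUSG00000055775, chr11:67090626-67122136, plus strand) had 0.877 and 2.08 normalized counts in WT and 0.979 and 0 in the others. A single read of Myh1 (ENSMUSG00000056328, chr11:67013554-67038078, plus strand), an adult fast form, was found in Taf4a-/- replicate 1 and none elsewhere, and 8.36% of its exon bases lie opposite other genes. With Myh4, the remaining adult form in the table, Myh1 and Myh8 came to 3 and 3 reads in WT and 2 and 1 in the others. All 3 genes were thus at or under the floor in each library, also where Myh13 had its 27 and 29 reads. Of the reads on Myh1, Myh3, Myh8 and Myh13, with Myh4 left out, Myh13 took 49.1% and 90.6% in the libraries labelled Taf4a-/- and none in WT, where Myh3 gave most of the 21 reads of replicate 1.

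Compared per length of exon, the levels of the skeletal myosins with a row stayed below those of the cardiac Myh6 and Myh7 and the non-muscle Myh9, Myh10 and Myh14 in every library. Myh13 had 4.36 and 5.29 normalized counts per kb in the libraries labelled Taf4a-/-, and Myh3 had 2.85 and 0 in WT and 4.14 and 0.540 in the others. Myog, in the same unit, had 6.52 and 3.51 in WT and 0.662 and 1.50 in the others, and Myod1 had 3.31 and 0.560 in WT. The cardiac pair Myh6 and Myh7 together held 13063 and 10149 normalized counts in WT and 1758 and 1328 in the libraries labelled Taf4a-/-, so cardiac myosin stayed the main sarcomeric form there by a wide margin. Whether fewer cells of a type or less RNA per cell lies behind a lower value cannot be told apart in such bulk samples.

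**Figure D3:**
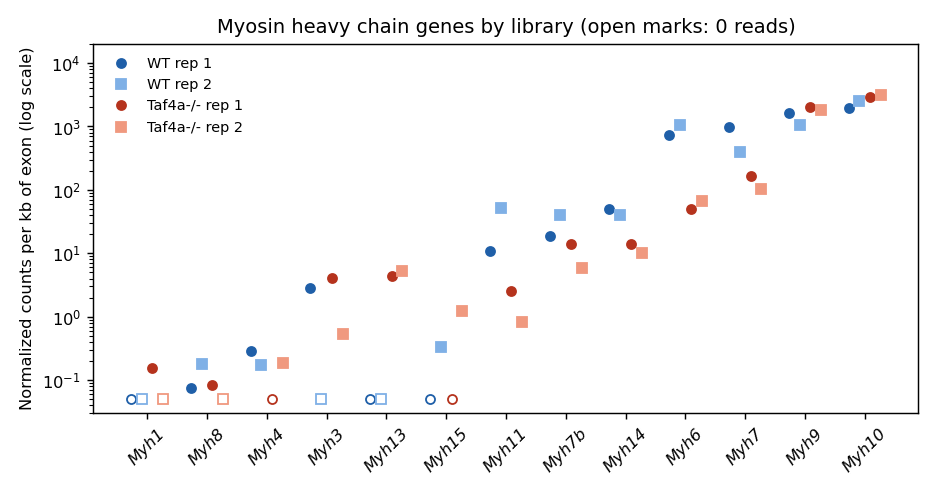
Normalized counts per kb of exon on a log axis for 13 class II myosin heavy chain genes in the 4 libraries, with open marks at the foot for 0 reads. The skeletal forms lie at the left and the cardiac Myh6 and Myh7 and the non-muscle Myh9 and Myh10 at the right, and Myh13 is open in WT and at 4.36 and 5.29 in the libraries labelled Taf4a-/-.

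The other myosin heavy chains showed the cardiac forms lower. Of 9 genes 7 passed the filter, and 4 of these were called lower and none higher, beside 17.3% and 11.3% of all genes tested. Myh6 and Myh7 are counted again among the cardiomyocyte genes below, and Myh11 among the smooth muscle markers. The median of the 7 was -1.89 on the log2 scale beside -0.01 for all genes tested. Myh6, the fast cardiac form, had 4763 and 6706 normalized counts in WT and 323 and 431 in the others, a log2 fold change of -3.92 (limma standard error 0.22, limma adjusted p = 0.00063). Myh7, the slow form that heart shares with slow skeletal fibres, had 8300 and 3443 in WT and 1435 and 897 in the others, a change of -2.24 (0.42, limma adjusted p = 0.0146), and 51.5% of the 50-base windows of Myh6 lie within 2 mismatches of Myh7, so reads of the pair may be split between them. The smooth muscle Myh11 was also called lower, at 71.9 and 340 normalized counts in WT and 16.6 and 5.53 in the others, and the non-muscle Myh14 fell by 1.89 on the log2 scale. Myh9 and Myh10, the non-muscle forms of most cells, were not called.

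The cluster on chromosome 11 runs over chr11:66891802-67185088, or 293 kb from Myh3 to Myh13, with 6 of its 11 annotated genes in the table. Within it Myh13 was the single gene past the floor in both libraries of 1 genotype and absent from the other. On the upstream side, Tmem220 had 48.2 and 73.8 normalized counts in WT and 82.2 and 56.4 in the others, and Sco1, a cytochrome c oxidase assembly factor, had 511 and 596 in WT and 707 and 628 in the others, and neither was called. 2310004I24Rik was called higher, at 271 and 287 against 431 and 414 (log2 fold change 0.60, limma adjusted p = 0.0416). Downstream lay Gas7, a gene of cell shape and neurite outgrowth that starts 134 kb after the start of Myh13. It had 898 and 1297 normalized counts in WT and 158 and 157 in the others, a log2 fold change of -2.77 (limma standard error 0.21, limma adjusted p = 0.0013). The nearest genes of the table on the 2 sides of Myh13 were thus Myh8, near 0 in all libraries, and Gas7, lower where Myh13 was read. Glp2r, a receptor for a gut peptide hormone whose span overlaps that of Gas7 on the other strand, had 7.01 and 4.16 normalized counts in WT and none in the others.

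**Figure D4:**
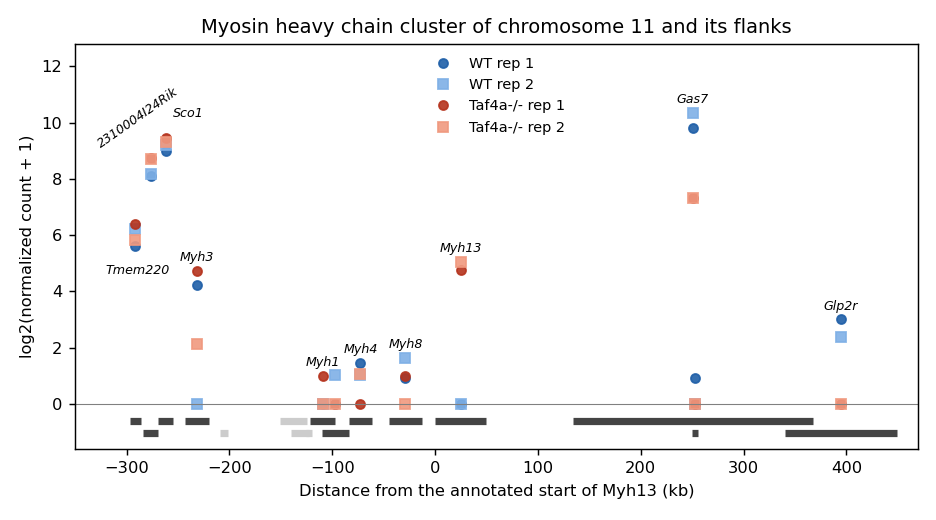
Level of each gene in the table, as log2(normalized count + 1), against distance in kb from the annotated start of Myh13, with gene bodies drawn below by strand (dark with a row, pale without; upper row plus strand). Myh13 is the gene at 0 kb with both libraries labelled Taf4a-/- well above the baseline and both WT libraries on it, and Gas7 shows the opposite order.

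Like that of Myh8, the promoter of Myog holds 2 E-boxes, the letters CANNTG that basic helix-loop-helix factors bind, and it is shown here. The part of these E-boxes in the level of Myog was not tested. The stretch runs from 200 bases before the RefSeq start to the base before it, at chr1:134289804-134290003 on the plus strand of GRCm38.p6, with both matches in capitals.
Myog: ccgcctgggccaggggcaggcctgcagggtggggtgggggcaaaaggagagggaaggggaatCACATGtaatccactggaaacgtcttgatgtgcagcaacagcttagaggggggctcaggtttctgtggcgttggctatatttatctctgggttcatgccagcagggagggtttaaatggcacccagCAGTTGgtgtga
Such a match is common, being found in 72.3% of 32841 RefSeq promoters, read from 250 bases before the start to 50 after it, and in 3 of the 7 promoters that these genes had there when Myh13 is left out. A match is a run of letters and not a bound site. TATAAA, searched on both strands, was found in 5 of the 7, namely Myf5, Myh1, Myh2, Myh3 and Myh8, beside 13.6% of all promoters. Both figures count a match anywhere in the stretch read. The match began after the start in Myf5 and Myh2, at offsets 20 and 10. It lay before the start in Myh3 and Myh8, at offsets -29 and -96, as did both matches of Myh1. Whether any of these matches acts in its promoter was not tested. The RefSeq start of Myh13 falls on its start codon while the other annotation places 161 bases of untranslated sequence before it, so no promoter of Myh13 is shown or counted.

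By the distance of centred log2 profiles over the 4 libraries, a description in which every gene shares the same libraries, the nearest genes to Myh13 were Mobp, Gm16258 and Zfp936 at 0.401, 0.576 and 0.863, where the median gene was at 4.94. Mobp, a myelin protein gene, had 2.63 and 2.08 normalized counts in WT and 118 and 103 in the libraries labelled Taf4a-/-. Zfp936, a zinc finger gene, had 3.51 and 1.04 in WT and 65.6 and 81.8 in the others. For Myh3 the nearest were Olig3, Gbx2 and Alox15, at 1.47, 1.55 and 1.58. Olig3, a neural tube factor, had 15.8 and 0 in WT and 40.1 and 13.3 in the others, so it too was lowest in WT replicate 2.

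Upstream of the myogenic factors, the genes that pattern paraxial mesoderm and muscle precursors were called in both directions. Of 18 genes 16 passed the filter, with 2 called higher, 4 called lower and 10 not called, beside 11.3% higher and 17.3% lower of all genes tested. The median log2 fold change of -0.47 ranged from -0.93 without WT replicate 2 to -0.11 without WT replicate 1. The 4 called lower became 1 without WT replicate 2 and 2 without either Taf4a-/- library. Tcf15, a basic helix-loop-helix factor of somites that early differentiating ESCs also express, had 41.2 and 24.9 normalized counts in WT and 314 and 248 in the others, a log2 fold change of 3.08 (limma standard error 0.33, limma adjusted p = 0.0031). Six4, a homeobox factor upstream of Myf5 and Myog, rose by 1.15 on the log2 scale, from 532 and 345 to 958 and 940. Eya2, a transcriptional coactivator of muscle precursors, went the other way, with 205 and 156 in WT and 14.7 and 22.1 in the others, a change of -3.24 (0.35, limma adjusted p = 0.0031). Pitx3 and Dmrt2, factors of muscle precursors and somites, were also called lower, with log2 fold changes of -1.97 and -1.83. Pax3, the progenitor factor related to Pax7, had 62.2 and 32.2 normalized counts in WT and 64.6 and 25.4 in the others and was not called, and Msgn1, a factor of presomitic mesoderm, had no read in WT and 2.94 and 8.85 normalized counts in the others.

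Factors that act with or against the myogenic factors were tested for all 15 genes in the table, and 1 was called higher and 5 lower, beside 11.3% and 17.3% of all genes tested. The median was -0.31, beside -0.01 for all genes. The counts rested on single libraries, being 4 higher and 4 lower without WT replicate 1 and none higher and 2 lower without any other 1 library. Mef2c, which works with Myod1 and Myog and also in heart muscle, had 1473 and 1462 normalized counts in WT and 407 and 584 in the others, a log2 fold change of -1.59 (limma standard error 0.19, limma adjusted p = 0.0040). Vgll2, a cofactor found in skeletal muscle, had 24.5 and 19.7 in WT and 3.92 and 6.64 in the others (-1.91, limma adjusted p = 0.0372), and Mdfi, an inhibitor of the myogenic factors, fell by 0.87 on the log2 scale. Id1, which keeps E proteins from pairing with the myogenic factors, was the gene called higher, at 1922 and 1553 against 2623 and 2327 (0.52, limma adjusted p = 0.0461). The E protein genes Tcf3, Tcf4 and Tcf12 were not called.

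Genes of the contractile apparatus and metabolism of skeletal fibres were called in both directions. Of 32 genes 19 passed the filter, with 4 called higher and 6 lower, beside 11.3% and 17.3% of all genes tested. The median of -0.59 was -0.25 without WT replicate 2 and -0.27 without Taf4a-/- replicate 2. The 4 called higher became 2 without WT replicate 1 and 1 without each of the other libraries, and the 6 called lower became 3 without WT replicate 2. Mylpf, the regulatory light chain of fast fibres, had 63.1 and 66.5 normalized counts in WT and 412 and 573 in the libraries labelled Taf4a-/-, a log2 fold change of 2.89 (limma standard error 0.24, limma adjusted p = 0.0015). Neb, the giant thin filament protein of skeletal muscle, had 13.2 and 16.6 in WT and 48.9 and 40.9 in the others (1.53, limma adjusted p = 0.0322), and Ryr1, the calcium release channel of skeletal muscle, rose by 1.25 on the log2 scale.

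Lower in the same list were Casq1, the calcium store protein, at 109 and 169 normalized counts in WT and 16.6 and 26.5 in the others, with 7.89% of its exon bases opposite another gene, and Pygm, muscle glycogen phosphorylase, at 274 and 483 in WT and 64.6 and 61.9 in the others. Tnni1, the slow troponin I that embryonic heart also uses, had 3195 and 2815 in WT and 479 and 635 in the others, a log2 fold change of -2.44 (limma standard error 0.17, limma adjusted p = 0.0011). Several genes of the list were under the filter. Ckm, muscle creatine kinase, was listed at 0 and 0 in WT and 0.979 and 1.11 in the others, with 31.9% of its exon bases opposite another gene, and Myl1, the essential light chain of fast fibres, had 2.63 and 28.1 in WT and 1.96 and 0 in the others.

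Genes of myoblast fusion and the neuromuscular junction were mostly low, with 8 of 16 past the filter, 1 called higher and 2 lower, beside 11.3% and 17.3% of all genes tested. Their median of 0.16 became -0.51 with no filter, and it was -0.00003 without WT replicate 1, -0.02 without WT replicate 2 and -0.16 without Taf4a-/- replicate 1, so the list had no stable direction. Mstn, myostatin, the secreted brake on muscle growth, had 139 and 136 normalized counts in WT and no read in the others (limma adjusted p = 0.0010). Its WT mean was 45.9 times the floor of 3 reads. Fgfr4, a growth factor receptor of muscle progenitors, was called lower too, at 277 and 262 against 161 and 107 (log2 fold change -1.03, limma adjusted p = 0.0321), and the 2 called lower became 1 without either WT library or Taf4a-/- replicate 2, while the 1 called higher became 2 without WT replicate 1. The pattern of Mstn was the reverse of that of Myh13, with reads in WT only. Gm7325, the older symbol of the fusion peptide gene Mymx, had 11.4 and 4.16 in WT and 55.8 and 64.1 in the others, a log2 fold change of 2.93 (limma standard error 0.53, limma adjusted p = 0.0132). Its partner in fusion, Tmem8c (Mymk), had 0.877 and 2.08 normalized counts in WT and none in the others. Chrng, the embryonic subunit of the muscle acetylcholine receptor, had 8.77 and 3.12 in WT and 0 and 1.11 in the others, and Cdh15, the cadherin of myoblasts, had 6.14 and 3.12 in WT and 0 and 2.21 in the others. Both were under the filter, were picked after their values were seen, and were lower without overlap, as Myog was. Of the 16 genes of the list, 8 were lower without overlap and 1 higher, beside 29.6% and 30.0% of all genes of the table. Chrna1, Chrnd and Chrne, also under the filter, overlapped.

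The cardiomyocyte genes that were called moved one way. Of 17 genes 16 passed the filter, and 15 were called lower and none higher, beside 17.3% and 11.3% of all genes tested. The median was -2.85 on the log2 scale. Actc1, cardiac actin, had 7519 and 6901 normalized counts in WT and 227 and 399 in the others (-4.58, limma adjusted p = 0.0007), and Myl2, the ventricular light chain, had 698 and 396 in WT and 20.6 and 25.4 in the others (-4.46, limma adjusted p = 0.0013). Pln, the regulator of the cardiac calcium pump, had 269 and 246 normalized counts in WT, and 3 reads and 0 in the others. Hand2, a heart field factor, was tested and not called, and it was higher without overlap (log2 fold change 0.46). Tnnc1 was under the filter, with 99.0% of its exon bases covered by another record of the same symbol, whose part in its count was not tested. Whether the skeletal genes chosen here share a direction cannot be read, since 6 of the 8 were under the filter and Myh13 was chosen on its values. Myh13 was higher, Myod1 and Myog were lower and the other 5 overlapped, where 59.6% of all genes of the table did not overlap.

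Markers of some other cell types also differed between the genotypes. Fibroblast or feeder markers, called lower in 7 of 8, summed to 429319 and 596621 normalized counts in WT and 48130 and 60341 in the libraries labelled Taf4a-/-. Markers of undifferentiated cells, called higher in 7 of 9, summed to 4569 and 2550 in WT and 14487 and 16869 in the others. Smooth muscle markers were called lower in 2 of 5, where 17.3% of all genes tested were called lower and 11.3% higher. The part of these shifts in the values of Myh13, Myod1 and Myog was not tested.

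**Figure D5:**
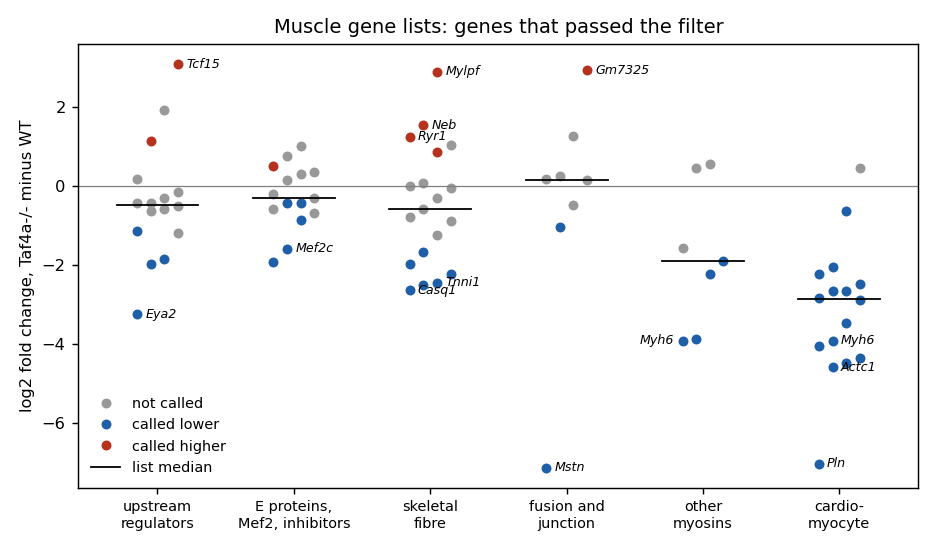
Log2 fold change of each tested gene (libraries labelled Taf4a-/- minus WT) in 6 lists, with a bar at the list median and colours for genes called by limma at an adjusted p under 0.05. The cardiomyocyte genes lie below 0 with the exception of Hand2, while the skeletal fibre genes lie on both sides, with Mylpf at 2.89 and Casq1 at -2.63.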

How the data were processed

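The libraries were made from poly(A) RNA with a kit that does not mark the strand, so reads of overlapping genes on opposite strands cannot be told apart. Per the labels and the study's methods, the authors mapped reads to mm9/NCBI37 with TopHat (1.3.3), counted them per gene with HTSeq (0.5.3p1) and deposited normalized counts, written with decimal commas; the labels name DESeq for the normalization and the methods DESeq 2. The annotation release and strand setting are not given in the sources used here. Dividing each deposited column by its smallest positive value gave whole numbers (tolerance 0.02 reads), taken as reads. The 24637 identifiers were all found in the NCBIM37 annotation (GENCODE). Genes averaging 10 or more were tested by limma 3.58.1 (R 4.3.3, eBayes with a variance trend) on log2(normalized count + 1), with Benjamini-Hochberg adjustment over all 16926. The code was tested on simulated data. The genes and lists were chosen with earlier results of these data known. Named from the upstream, partner, fibre, fusion, other myosin and cardiomyocyte lists were up to 3 called genes with the highest and 3 with the lowest fold changes, the neighbours of the myosin cluster, the 3 nearest profiles, and, chosen after their values were seen, Eif2s3y, Gm16411 and genes not called. Fold values against a count of 0 use a floor of 3 reads and carry no error on the other genotype. Sequences came from the NCBIM37 genome and, for Myog, from RefSeq. Plots were made in Python 3.11.15 (matplotlib 3.10.9).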

Additional observations from a re-analysis of the deposited data

How the results depend on the processing

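The alternatives were a pseudocount of 10, no filter, a mean of at least 50, TMM scaling, quantile normalization, voom on the recovered reads, a replicate block and leaving out each library. A lone library left in a genotype was assumed to vary like the other genotype. The planned fits with edgeR and DESeq2 were not run, and voom was the one fit on the recovered reads. Replicate numbers name separate lines, and same-numbered libraries did not deviate together (correlation 0.01). With the replicate block 1536 genes were called higher and 2657 lower, and the factors acting with the myogenic factors had 2 called each way. The counts ran from 624 to 2476 higher and 1222 to 3038 lower when 1 library was left out. With quantile normalization the share of calls that were higher was 52.2% in place of 39.4%, and the median of all genes moved by 0.12.

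List medians without 1 library ranged from -0.93 to -0.11 for upstream regulators, -0.79 to -0.25 for fibre genes, -0.16 to 0.21 for fusion and junction genes and -3.22 to -2.79 for cardiomyocyte genes. The fusion median turned to -0.51 without the filter, -0.48 when genes had to average 50, -2.9e-05 without WT replicate 1, -0.02 without WT replicate 2 and -0.16 without Taf4a-/- replicate 1. Quantile normalization moved it to 0.39, the fibre median to -0.26 and the cardiomyocyte median to -2.57, and a pseudocount of 10 moved the last to -2.62. Without 1 library Myf5 ranged from -0.45 to 0.62, turning to -0.37 without WT replicate 2, Pax7 from 0.06 to 3.21, and Myh3 from -0.79 to 3.42, turning to -0.79 without WT replicate 2. The cause was not tested. Depth limits the chosen regulators and myosins other than Myh13 and Myh3, none of which passed 11 reads.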
